A study of Mus musculus with 29 samples.

Results

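Matrix metalloproteinases and their tissue inhibitors were followed in the mouse heart through the induction of heart failure (HF) and the recovery from it. The members were 10 genes of the 29,955 in the expression table, chosen by symbol: 4 matrix metalloproteinases (Mmp2, Mmp3, Mmp9 and Mmp14), 2 proteases of the ADAMTS family (Adamts1 and Adamts2) and the 4 tissue inhibitors of metalloproteinases (Timp1, Timp2, Timp3 and Timp4). The members tested were 10 as well, since each averaged 0.5 FPKM or more over the libraries. Mmp9 did so with a mean of 0.579 FPKM, which was 0.477 FPKM without library 1 of HF week 3.

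Matrix metalloproteinases are zinc enzymes that are made as inactive precursors and cut collagens and other proteins of the extracellular matrix once they are activated. Tissue inhibitors bind the active enzymes and block them, so the matrix of the heart depends on both families as well as on the synthesis of its substrates. In the heart these genes are mostly known from fibroblasts, vascular cells and inflammatory cells, and Timp4 is known for its high level in cardiac tissue. An mRNA level does not show how much active enzyme is present.

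The animals were C57BL6 mice, 3 months old at the start, and the samples are labelled as whole ventricle. The study's methods instead state that hearts were cut at mid level and that the frozen apical parts went to RNA sequencing. For 5 weeks the drinking water of the HF mice held L-NAME (0.3 mg/ml), an inhibitor of nitric oxide synthesis, and NaCl (1%), and from the second week they also received angiotensin II at 0.7 mg/kg/day from an osmotic pump that lasts 28 days. Hearts in HF were taken at week 3 (n = 2) and at week 5 (n = 3). Recovery hearts came from mice that had completed the 5 weeks and then drank normal water with an exhausted pump, and they were taken at protocol week 7 (n = 2), 9 (n = 2), 11 (n = 3), 13 (n = 2) and 19 (n = 5), the last of these after 14 weeks of recovery. The untreated hearts used here were those of Control week 19 (n = 5), which are age matched to Recovery week 19 and 14 weeks older than hearts of HF week 5, so that age and treatment cannot be told apart in the comparisons of HF with control. Recovery hearts were likewise older than HF hearts, and age and recovery cannot be told apart where these are compared. The values are FPKM, fragment counts scaled to transcript length and library size, and the number of a library within its group does not identify a labelled mouse.

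Some libraries stood apart before any member was looked at. Library 1 of HF week 3 held values above 0 for 12,816 genes, against 16,339 to 18,091 genes in the other libraries. The absolute depth is unknown, and relative depth ranged from 0.728 to 1.40 over 23 libraries. Myl7, the atrial myosin light chain that adult ventricular muscle largely lacks, was at 1805 and 5773 FPKM in HF week 3 and at 18,388, 152 and 6.16 FPKM in libraries 1, 2 and 3 of HF week 5, with at most 3.56 FPKM elsewhere. Myl7 belongs to a list of 6 atrial cardiomyocyte markers. Their summed FPKM was 91.2 to 353 in Control week 19, 7737 and 14,051 in HF week 3 and 2230 to 81,737 in HF week 5. Nppa and Bmp10 of this list, however, were at 0 in both libraries of HF week 3. Myh6, the main myosin heavy chain of the adult mouse ventricle, is listed at 0 in 13 libraries, those of Control week 19, Recovery week 19 and HF week 5, and at 37,546 to 316,195 FPKM in the 11 other libraries. What divides these libraries is not given in the sources used here, and it cannot be told apart from the groups wherever a comparison crosses that line.

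Among the proteases, Mmp2, the gelatinase that cleaves denatured collagen and basement membrane collagen, had the highest level. It was at 18.8 to 21.3 FPKM in the 5 libraries of Control week 19, at 35.0 and 63.8 FPKM in HF week 3, and at 26.9, 20.5 and 32.8 FPKM in HF week 5. HF week 3 lay above the controls without overlap, whereas library 2 of HF week 5 lay among them. In recovery Mmp2 was at 20.5 and 19.7 FPKM at week 7, at 21.2 and 28.8 FPKM at week 9, at 29.0, 33.6 and 35.6 FPKM at week 11, at 24.8 and 30.0 FPKM at week 13, and at 20.7, 30.7, 22.3, 21.5 and 30.5 FPKM at week 19. Ordered by mean, the groups ran from HF week 3 through Recovery weeks 11 and 13, HF week 5 and Recovery weeks 19, 9 and 7 to Control week 19, and in that order each neighbouring pair overlapped except Recovery weeks 9 and 7.

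Mmp14, the membrane-bound metalloproteinase that activates the Mmp2 precursor, had a lower level. It was at 5.38, 7.05, 6.47, 6.87 and 5.41 FPKM in Control week 19, at 22.9 and 10.7 FPKM in HF week 3, and at 9.71, 5.76 and 7.10 FPKM in HF week 5. The HF week 5 libraries overlapped the controls. The lowest levels were those of Recovery week 7, 3.16 and 3.83 FPKM, below each control library, and Recovery week 11 stood at 11.8, 10.99 and 12.1 FPKM. At Recovery week 19 Mmp14 was at 6.44 to 10.7 FPKM with a median of 8.57 FPKM.

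Mmp3, stromelysin 1, which cuts proteoglycans, fibronectin and other metalloproteinase precursors, had its highest means in the HF groups. It was at 2.56, 2.01, 2.35, 2.28 and 5.34 FPKM in Control week 19, at 33.1 and 13.2 FPKM in HF week 3 and at 25.1, 4.49 and 3.58 FPKM in HF week 5. Library 1 of HF week 5 stood near HF week 3, and the other 2 libraries of that group overlapped library 5 of the controls. In recovery the 2 libraries of week 7 had the lowest levels of the series, 1.31 and 1.05 FPKM, and the libraries of weeks 9 to 19 lay between 2.13 and 5.04 FPKM.

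Mmp9, the gelatinase of neutrophils and macrophages, was near the limit of what was tested. It was at 0.231 to 0.396 FPKM in Control week 19, at 2.93 and 0.267 FPKM in HF week 3 and at 0.556, 0.381 and 0.141 FPKM in HF week 5. A single library, library 1 of HF week 3, carried the high mean of that group. The next highest mean was that of Recovery week 11, with 0.491, 1.35 and 0.763 FPKM.

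Adamts2, which removes the aminoterminal propeptide of fibrillar procollagens, gave the closest agreement between the libraries of HF week 3, at 14.8 and 15.0 FPKM. It was at 4.56, 4.74, 3.85, 4.20 and 3.27 FPKM in Control week 19 and at 9.64, 5.81 and 6.56 FPKM in HF week 5. Both HF groups lay above the controls without overlap, and HF week 3 lay above the other 7 groups. In recovery Adamts2 was at 3.81 and 4.24 FPKM at week 7, within the range of the controls, and at 4.38 to 9.68 FPKM from week 9 to week 19.

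Adamts1, which cleaves proteoglycans such as versican, differed little between groups. It was at 4.05 to 6.87 FPKM in Control week 19, at 10.7 and 3.94 FPKM in HF week 3, at 13.4, 4.37 and 5.09 FPKM in HF week 5 and at 4.43 to 7.64 FPKM in the recovery groups. The first library of each HF group was high, library 2 of HF week 3 lay just under the lowest control library and the other 2 libraries of HF week 5 lay among the controls, and each neighbouring pair in its order of groups overlapped. It was called in none of the 8 comparisons.

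**Figure D1:**
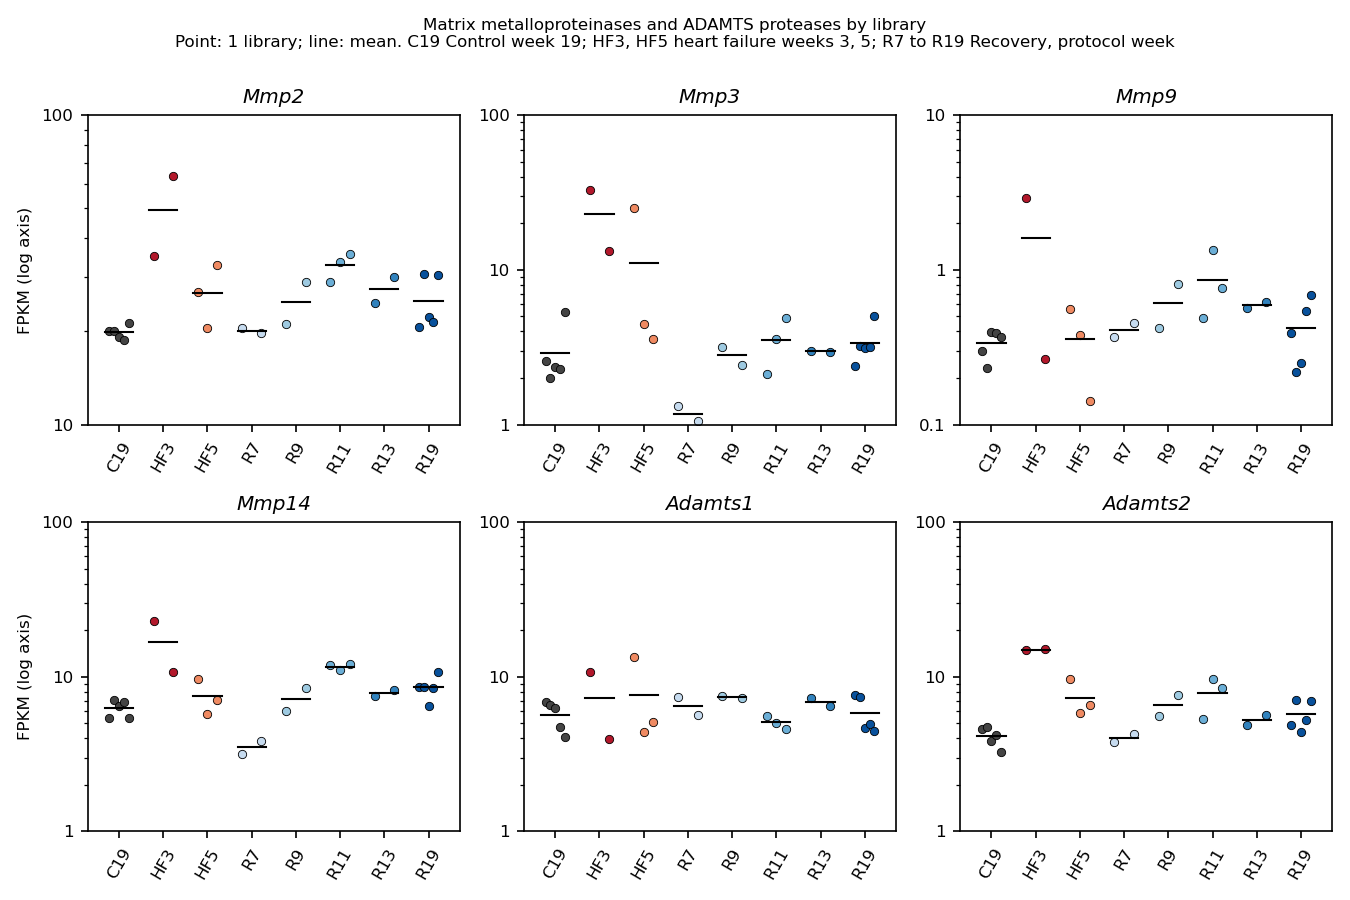
Level of the 6 protease genes in each library (FPKM, log axis) by group, with 1 point for each of the 24 libraries and a line at the group mean. Adamts2 stands at 14.8 and 15.0 FPKM in HF week 3 above the other groups, Mmp3 is at 13.2 FPKM or more in 3 of the 5 HF libraries, and Mmp9 has a single high library at 2.93 FPKM.

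Timp1, the inducible inhibitor of most secreted metalloproteinases, had the widest range of the members. It was at 5.12, 6.41, 8.98, 3.86 and 18.3 FPKM in Control week 19, at 225 and 176 FPKM in HF week 3 and at 57.0, 25.1 and 16.2 FPKM in HF week 5. HF week 3 lay above the other groups without overlap, and library 3 of HF week 5 lay below library 5 of the controls. In recovery it was at 3.00 and 2.41 FPKM at week 7, below each control library, then at 15.6 and 12.6 FPKM at week 9, at 6.999, 18.3 and 19.7 FPKM at week 11 and at 8.14 and 23.9 FPKM at week 13. At Recovery week 19 it was at 5.38, 4.86, 4.54 and 4.48 FPKM in 4 libraries and at 22.8 FPKM in library 5.

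Timp1 and Mmp3 moved together across the libraries, with Pearson's r of 0.89 on log2(FPKM + 0.5) over 24 libraries, which is a description since the libraries share their groups. Both genes are known to respond to the transcription factor AP-1, so their promoters were searched for its core motif TGANTCA on both strands, and for the related letters TGAGTAA, chosen after the Timp1 sequence was seen. No stretch of letters matches both TGANTCA and TGAGTAA, and the TATA box letters TATAAA were searched as well. Promoters here are the RefSeq sequences of GRCm38.p6 from 250 bases before to 50 bases after the annotated start, and 8 of the 10 members matched an entry. The sequence for Mmp3 is chr9:7445572-7445871 and that for Timp1 is chrX:20869916-20870215, both on the plus strand, and both are shown because these genes had the widest differences among the proteases and inhibitors; capitals mark the motifs found.
Mmp3: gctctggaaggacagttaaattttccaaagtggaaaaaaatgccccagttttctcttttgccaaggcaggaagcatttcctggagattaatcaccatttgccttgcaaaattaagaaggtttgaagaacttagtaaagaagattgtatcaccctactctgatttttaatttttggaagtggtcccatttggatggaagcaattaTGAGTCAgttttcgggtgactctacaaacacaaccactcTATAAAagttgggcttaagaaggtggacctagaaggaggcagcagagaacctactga
Timp1: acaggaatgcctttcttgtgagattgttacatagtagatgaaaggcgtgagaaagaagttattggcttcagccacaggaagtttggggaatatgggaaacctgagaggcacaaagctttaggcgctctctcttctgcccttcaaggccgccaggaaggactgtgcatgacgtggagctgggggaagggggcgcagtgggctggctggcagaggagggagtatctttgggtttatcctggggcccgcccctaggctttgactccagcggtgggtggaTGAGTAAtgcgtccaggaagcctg
In the Mmp3 promoter TGAGTCA, a match to TGANTCA, begins 46 bases before the start and TATAAA begins 7 bases before it. In the Timp1 promoter TGAGTAA begins 27 bases after the start. Of 32,851 promoters of the same length 7.81% hold TGANTCA, 2.68% hold TGAGTAA and 13.6% hold TATAAA. Among the 8 members with a sequence, TGANTCA was found in Mmp3 alone and not in Timp1, and TATAAA in Mmp3 and Adamts1. TGAGTAA was found in Timp1 alone. That find was fixed by the choice of these letters, and the share of promoters that hold them says nothing about it. A match is a description of the letters and does not show a bound site.

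Timp2, which inhibits metalloproteinases and also takes part in the activation of the Mmp2 precursor at the cell surface, followed Mmp2 closely, with r = 0.90 over the 24 libraries. It was at 33.4, 34.0, 26.8, 30.5 and 28.0 FPKM in Control week 19, at 51.7 and 90.3 FPKM in HF week 3 and at 69.0, 36.8 and 46.1 FPKM in HF week 5. Both HF groups lay above the controls without overlap. In recovery it was at 37.1 and 32.02 FPKM at week 7, at 34.5 and 43.3 FPKM at week 9, at 46.4, 53.6 and 62.3 FPKM at week 11, at 44.1 and 50.7 FPKM at week 13, and at 34.4, 49.7, 38.6, 40.5 and 52.8 FPKM at week 19. The lowest library of Recovery week 19 lay just above the highest control library, so these groups did not overlap either.

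Timp3, the inhibitor that binds to the matrix itself and also blocks ADAM and ADAMTS proteases, was lowest in HF. It was at 16.4, 16.5, 19.7, 16.5 and 9.11 FPKM in Control week 19, at 9.71 and 10.5 FPKM in HF week 3 and at 8.36, 5.83 and 8.40 FPKM in HF week 5. HF week 5 lay below each other library of the series, and library 5 of the controls lay closest to it. In recovery it was at 21.3 and 16.5 FPKM at week 7, at 20.3 and 16.5 FPKM at week 9, at 18.98, 21.6 and 11.4 FPKM at week 11, at 12.6 and 13.9 FPKM at week 13, and at 28.7, 29.1, 17.6, 25.4 and 11.2 FPKM at week 19. Ordered by mean, Recovery week 19 came first and Recovery week 13, HF week 3 and HF week 5 came last, and these last 3 groups did not overlap one another.

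The values of Timp3 carry a limit that follows from its position. In the GENCODE vM21 annotation of GRCm38 Timp3 lies within Syn3, a synapsin gene on the opposite strand of chromosome 10, and 1733 of its 8144 exonic bases (21.3%) are also exonic in Syn3. Whether fragments were counted by strand is not stated, and without strand the reads of these bases cannot be assigned to one of the genes. Syn3 was at 37.4 to 59.1 FPKM in Control week 19, at 78.2 and 92.3 FPKM in HF week 3, at 90.6, 41.4 and 48.6 FPKM in HF week 5 and at 37.4 to 54.7 FPKM in Recovery week 19. Syn3 was above Timp3 in each library and the 2 genes did not rise and fall together, with r = -0.35 over 24 libraries. How far reads of Syn3 entered the values of Timp3, or reads of Timp3 those of Syn3, was not tested, so part of the lower Timp3 in HF may lie in how shared reads were assigned. Timp1 and Timp4 lie in the same way within Syn1 and Syn2, with 0 and 90 shared exonic bases, and Syn1 and Syn2 were at most at 0.612 and 2.66 FPKM.

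**Figure D2:**
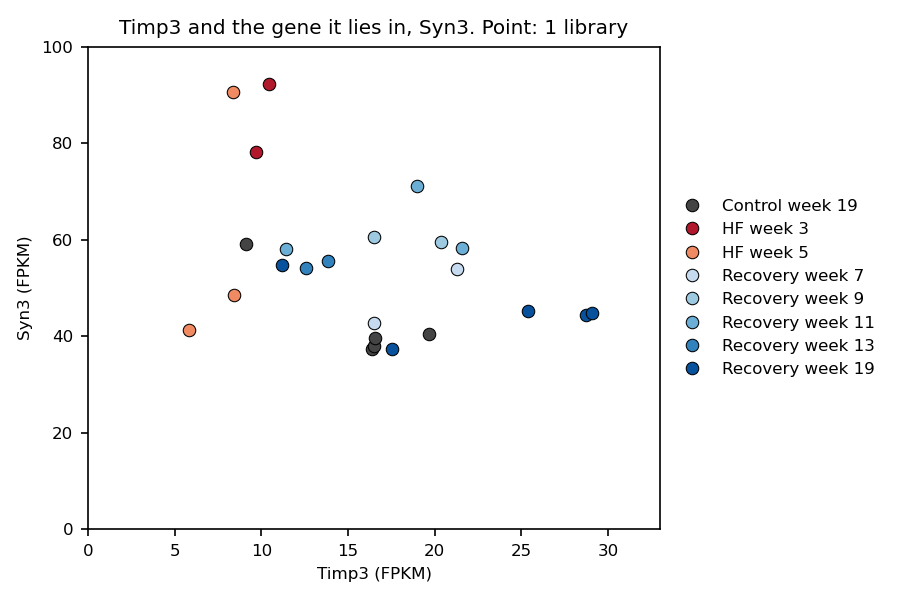
Level of Timp3 (x axis, FPKM) and of Syn3, the gene it lies within (y axis, FPKM), with 1 point for each of the 24 libraries coloured by group. The 5 HF libraries have Timp3 between 5.83 and 10.5 FPKM over a range of Syn3 from 41.4 to 92.3 FPKM.

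Timp4, the inhibitor with the highest level in most of these hearts, was at 57.7, 70.7, 56.5, 82.5 and 144 FPKM in Control week 19, at 72.2 and 107 FPKM in HF week 3 and at 44.6, 40.2 and 55.8 FPKM in HF week 5. HF week 5 lay below each other library of the series, and its highest library, 55.8 FPKM, lay just under the lowest control library, 56.5 FPKM. In recovery it was at 63.8 and 65.6 FPKM at week 7, at 88.7 and 77.6 FPKM at week 9, at 124, 89.8 and 111 FPKM at week 11, at 61.9 and 65.2 FPKM at week 13, and at 72.3, 86.5, 94.9, 77.8 and 101 FPKM at week 19. Apart from HF week 5, each neighbouring pair in the order of groups overlapped.

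**Figure D3:**
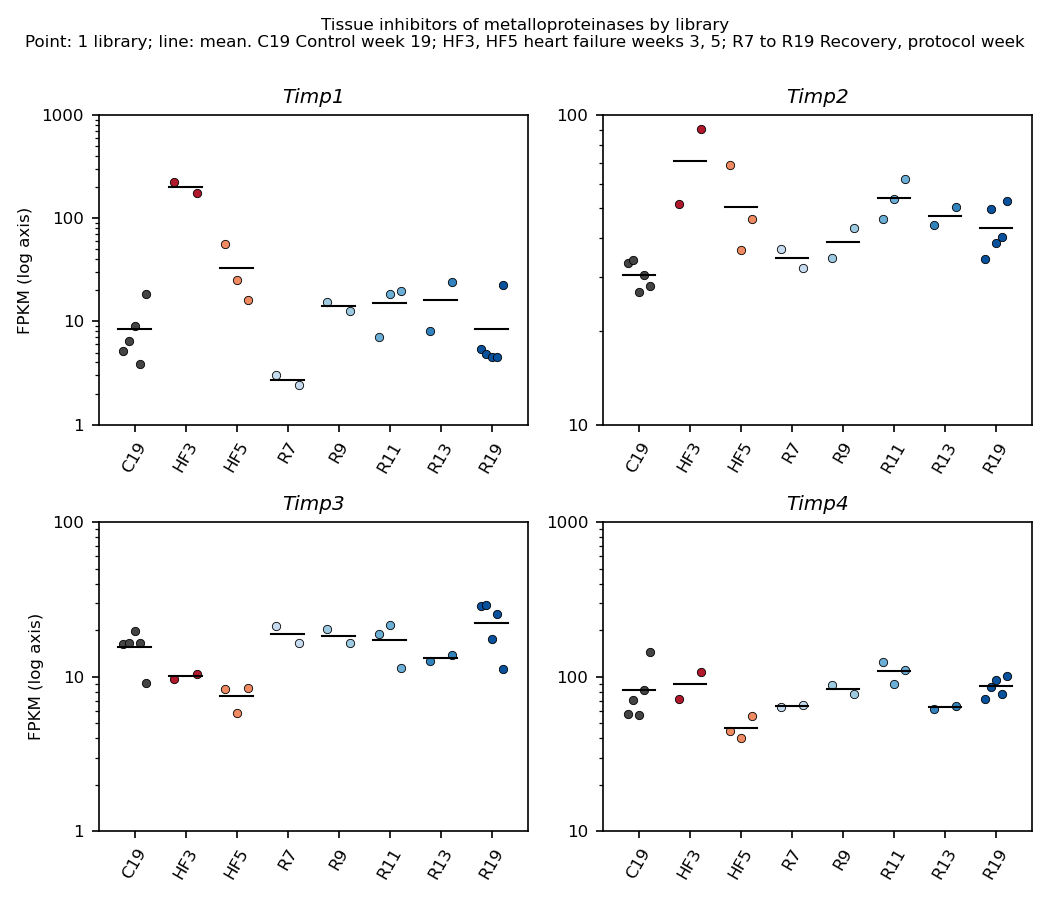
Level of the 4 Timp genes in each library (FPKM, log axis) by group, with a line at the group mean. Timp1 is at 225 and 176 FPKM in HF week 3 and at 2.41 to 23.9 FPKM in the recovery groups, whereas Timp3 and Timp4 have their lowest levels, 5.83 to 8.40 and 40.2 to 55.8 FPKM, in HF week 5.

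HF week 5 was compared with Control week 19 to ask what had changed by the end of the induction. Timp1, Mmp3, Adamts2 and Timp2 were higher in HF, and Timp3 and Timp4 were lower. These are 6 of the 10 members called at an adjusted p below 0.05 with limma, against 24.0% of the 12,759 genes tested. The groups did not overlap for 4 members (Adamts2, Timp2, Timp3 and Timp4), against 29.5% of all genes tested. The median log2 fold change of the members was 0.32, against 0.04 over all genes tested.

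On the log2(FPKM + 0.5) scale Timp1 rose by 1.89 (SE 0.54, adjusted p = 0.0159), or 3.70-fold, and Mmp3 by 1.31 (SE 0.44, adjusted p = 0.0379), or 2.48-fold. Adamts2 rose by 0.74 (SE 0.19, adjusted p = 0.00934) and Timp2 by 0.68 (SE 0.20, adjusted p = 0.0173). Timp3 fell by 0.98 (SE 0.28, adjusted p = 0.0153) and Timp4 fell by 0.73 (SE 0.23, adjusted p = 0.0265), to 0.506 and 0.604 of the control level. The inhibitors thus differed in opposite directions within the same hearts, Timp1 and Timp2 being higher and Timp3 and Timp4 lower. Mmp2, Mmp9, Mmp14 and Adamts1 were not called.

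Library 1 of HF week 5, the one with the high Myl7, held the highest values of Mmp3, Mmp9, Mmp14, Adamts1, Adamts2, Timp1 and Timp2 in its group. Without it 1 member was called: Timp3 at a log2 fold change of -1.06 (adjusted p = 0.0431), and Timp1 stood at 1.40 (adjusted p = 0.138), Mmp3 at 0.48 (adjusted p = 0.405), Adamts2 at 0.54 (adjusted p = 0.0979), Timp2 at 0.43 (adjusted p = 0.173) and Timp4 at -0.70 (adjusted p = 0.101). Without library 2 of HF week 5, Timp3 in turn lost its call, at -0.82 (adjusted p = 0.0689), as did Timp4, at -0.62 (adjusted p = 0.0946), and Mmp2 gained one, at 0.57 (adjusted p = 0.0453). With only the groups compared in the fit 4 members were called, Mmp3 (adjusted p = 0.107) and Timp4 (adjusted p = 0.0891) losing their calls at the same fold changes. Timp3 and Timp4 were thus about as low without library 1 as with it, and Mmp3 was not as high.

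HF week 3 was compared with the same controls to ask what was present during the induction. Timp1 was 25.4-fold higher, the widest difference of the members, followed by Mmp3 at 6.64-fold and Adamts2 at 3.36-fold. Of the 10 members 7 were called, 7 higher and 0 lower, in a comparison in which 50.7% of the genes tested were called. The 7 include Mmp9, which passed the filter on low values only through library 1 of HF week 3, so its call is given no weight. The median log2 fold change of the members was 1.19, against -0.05 over all genes tested. This comparison crosses the division of the libraries by Myh6 and rests on 2 HF libraries that both hold Myl7.

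Timp1 rose by 4.67 on the log2 scale (SE 0.62, adjusted p = 8.96e-06), Mmp3 by 2.73 (SE 0.51, adjusted p = 0.000258) and Adamts2 by 1.75 (SE 0.22, adjusted p = 5.26e-06). Mmp14 rose by 1.27 (SE 0.23, adjusted p = 0.000202), Mmp2 by 1.23 (SE 0.21, adjusted p = 0.000113) and Timp2 by 1.15 (SE 0.22, adjusted p = 0.00037). These 6 members kept their call under each alternative tried for them, with Mmp3 at 2.08 without library 1 of HF week 3 and at 3.38 without library 2. Mmp9, at 0.96 (SE 0.38, adjusted p = 0.0414), rests on library 1 of HF week 3, without which it no longer passed the filter. Without library 2 of HF week 3 it stood at 2.04, and it lost its call in 11 of 14 alternatives. Timp3 and Timp4, which were lower at HF week 5, were not called at HF week 3.

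Between HF weeks 3 and 5, 5 members fell and 0 rose, against 21.4% of the genes tested that were called. This comparison crosses the division of the libraries by Myh6, which cannot be told apart from the change between these weeks. On the log2 scale Timp1 fell by 2.78 (SE 0.67, adjusted p = 0.0121), Mmp14 fell by 1.04 (SE 0.25, adjusted p = 0.0122) and Adamts2 fell by 1.01 (SE 0.24, adjusted p = 0.0116). Timp4 fell by 0.91 (SE 0.29, adjusted p = 0.0316) and Mmp2 fell by 0.84 (SE 0.23, adjusted p = 0.0196). Without library 1 of HF week 3 the number called was 1, Mmp2 at a log2 fold change of -1.27 (adjusted p = 0.0127), while Timp1 stood at -2.60, Timp4 at -1.20, Adamts2 at -1.02 and Mmp14 at -0.51. Without library 2 of HF week 3 Mmp2 stood at -0.41 (adjusted p = 0.164) and Timp4 at -0.63 (adjusted p = 0.140). Without library 2 of HF week 5 the number called was 2, Adamts2 and Timp1. With only these 5 libraries in the fit it was 0, at the same fold changes.

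**Figure D4:**
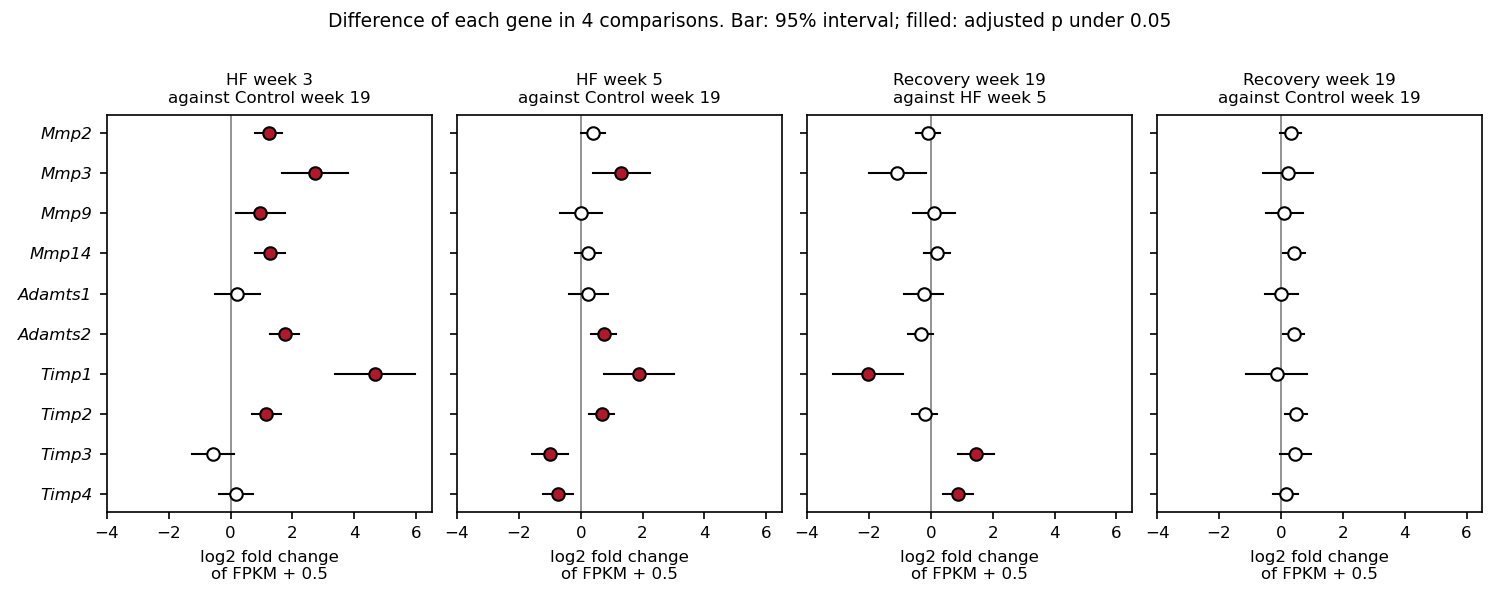
Log2 fold change of each member in 4 comparisons (x axis, on log2(FPKM + 0.5)), with 95% intervals from limma and filled points at an adjusted p below 0.05. Filled points number 7 for HF week 3 and 6 for HF week 5 against control, 3 for Recovery week 19 against HF week 5 and 0 for Recovery week 19 against control. The 7 include Mmp9, which passed the filter on low values only through library 1 of HF week 3.

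Recovery week 19 was compared with HF week 5 to ask what had changed after 14 weeks without the inducing agents, in hearts that were also 14 weeks older. Timp3 was 2.72-fold and Timp4 1.84-fold higher after recovery, without overlap, and Timp1 was lower, at 0.245 of the HF level. These were 3 of the 10 members, against 24.2% of the genes tested, and the 2 members without overlap stand against 26.7% of the genes tested. This comparison shares the HF libraries with the comparison of HF week 5 and control, so opposite signs in both are partly built in.

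Timp3 rose by 1.45 on the log2 scale (SE 0.28, adjusted p = 0.0013) and Timp4 by 0.88 (SE 0.23, adjusted p = 0.0094). Both kept their call in the 19 alternatives tried, with the adjusted p at most 0.0139 for Timp3 and 0.0446 for Timp4. Timp1 fell by 2.03 (SE 0.54, adjusted p = 0.0106), and without library 1 of HF week 5 its difference was -1.54 (adjusted p = 0.0961). Mmp3, with a median of 3.16 FPKM after recovery and 4.49 FPKM in HF, was not called (adjusted p = 0.0814). Adamts2 and Timp2, both higher in HF week 5 than in control, were not called here, with intervals of the log2 difference from -0.73 to 0.07 and from -0.60 to 0.21.

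The earlier recovery groups, weeks 7 to 13, were averaged as the mean of their 4 group means. Against HF week 5 Timp3 was 2.16-fold and Timp4 1.67-fold higher, and Timp1 and Mmp3 were lower, at 0.340 and 0.364 of the HF level. These 4 members of 10 stand against 22.1% of the genes tested. The adjusted p was 0.00465 for Timp3, 0.0163 for Timp4, 0.0289 for Timp1 and 0.0150 for Mmp3. Without library 1 of HF week 5 Timp3 alone was called (adjusted p = 0.0198). Timp4 then stood at a log2 difference of 0.71 (adjusted p = 0.0822) in place of 0.74. The log2 difference of Mmp3 was then -0.62 (adjusted p = 0.242) in place of -1.46, and that of Timp1 was -1.07 (adjusted p = 0.245) in place of -1.56. Without library 2 of HF week 5 the calls were 2, Mmp3 and Timp3, while Timp1 stood at -1.65 (adjusted p = 0.0546) and Timp4 at 0.64 (adjusted p = 0.0755). This comparison crosses the division of the libraries by Myh6.

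Against HF week 3, which lies on the same side of that division, recovery weeks 7 to 13 were lower for 6 members and higher for 0, against 51.9% of the genes tested. Timp1 fell by 4.34 on the log2 scale (SE 0.58, adjusted p = 9.38e-06), Mmp3 fell by 2.87 (SE 0.48, adjusted p = 8.39e-05) and Adamts2 fell by 1.31 (SE 0.21, adjusted p = 5.07e-05). Mmp14, Mmp2 and Timp2 fell by 1.12, 0.86 and 0.67. Each of these 3 lost its call without 1 HF library: without library 1 of HF week 3 Mmp14 stood at -0.59 (adjusted p = 0.0641), and without library 2 Mmp2 stood at -0.44 (adjusted p = 0.0943) and Timp2 at -0.27 (adjusted p = 0.363). Mmp3 kept its call, at -2.23 without library 1 and at -3.52 without library 2. Timp3, with a mean of 17.0 FPKM in these recovery weeks and 10.1 FPKM in HF week 3, was not called (adjusted p = 0.0584), although the libraries did not overlap. It gained a call in 4 of 20 alternatives, with the adjusted p of the 20 from 0.00977 to 0.256; the lowest came without library 5 of Control week 19 and of Recovery week 19. This comparison was added after the data had been seen.

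Recovery week 19 was compared with Control week 19, its age-matched group, to ask what remained different. With limma no member was called, 0 of 10, and 0.0235% of the genes tested were. At an unadjusted p below 0.05, 3 members were higher after recovery, against 2.88% of the genes tested: Timp2 by 0.48 on the log2 scale (SE 0.17), Mmp14 by 0.42 (SE 0.17) and Adamts2 by 0.41 (SE 0.17), each with an adjusted p of 1. Without library 5 of both groups these differences were 0.38, 0.29 and 0.27. For the members called in HF week 5 against control, the intervals of the log2 difference from control were taken without adjustment over genes. They were -1.11 to 0.83 for Timp1, -0.58 to 1.03 for Mmp3 and 0.06 to 0.76 for Adamts2. For Timp2 the interval was 0.13 to 0.83, for Timp3 -0.04 to 0.97 and for Timp4 -0.26 to 0.57.

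Recovery weeks 7 to 13 against the same controls also gave 0 members of 10, with 0.0705% of the genes tested called. At an unadjusted p below 0.05 there were 3, against 6.90% of the genes tested: Timp2 by 0.49 (SE 0.15), Adamts2 by 0.43 (SE 0.15) and Mmp2 by 0.37 (SE 0.14), with adjusted p of 0.433, 0.521 and 0.596. With only the groups compared in the fit Timp2 was called (adjusted p = 0.0325). This comparison also crosses the division of the libraries by Myh6. The hearts of Recovery weeks 7 to 13 were also younger than these controls, and neither difference can be told apart from recovery here.

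Since FPKM are per length, the levels of the inhibitors can be added. In Control week 19 Timp4 made up 58.2% ± 9.03 (SD, n = 5) of the summed FPKM of the 4 Timp genes, Timp2 23.4% ± 5.87, Timp3 12.4% ± 4.82 and Timp1 5.93% ± 2.59. In HF week 3 Timp1 made up 45.9% and 62.7% in its 2 libraries, and the sum itself was 371 FPKM on average against 137 FPKM in the controls. In HF week 5 Timp1 made up 22.7% ± 9.54 (SD, n = 3), Timp2 36.4% ± 2.25, Timp4 35.4% ± 9.73 and Timp3 5.57% ± 0.995. The sum at HF week 5 was 138 FPKM, close to that of the controls, with a different make-up. In Recovery week 19 Timp4 made up 53.9% ± 4.12 (SD, n = 5) and Timp1 4.95% ± 4.03.

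**Figure D5:**
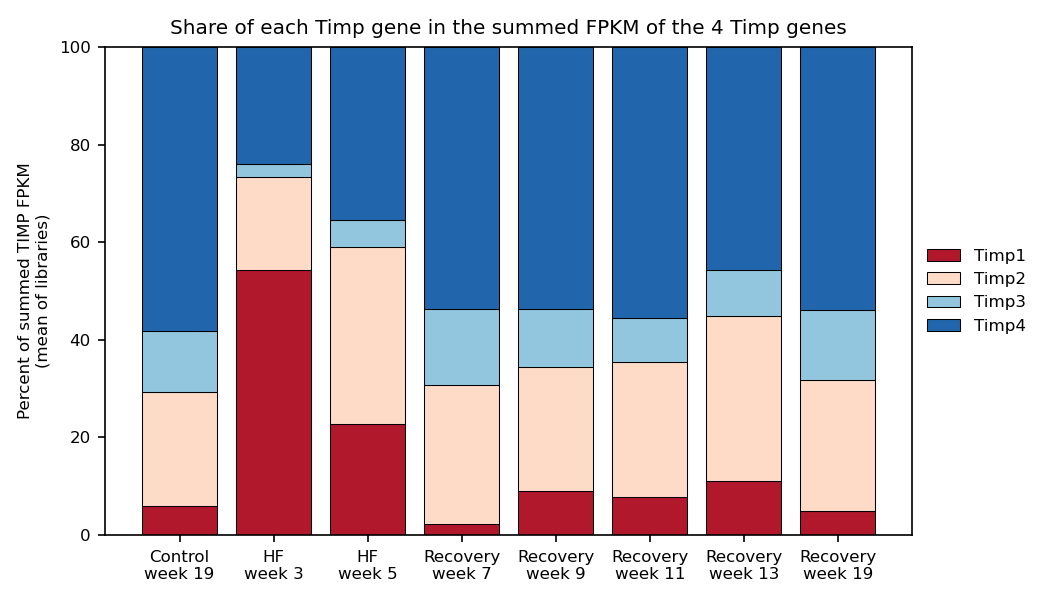
Mean share of each Timp gene in the summed FPKM of the 4 Timp genes by group (y axis, percent; bars stack to the whole). Timp4 has 58.2% in Control week 19 and 35.4% in HF week 5, and Timp1 has 54.3% in HF week 3.

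The ratio of the summed FPKM of the 4 Timp genes to that of the 4 Mmp genes was 4.63 ± 0.914 (SD, n = 5) in Control week 19, 3.08 ± 0.331 (SD, n = 3) in HF week 5 and 4.33 ± 0.352 (SD, n = 5) in Recovery week 19. In HF week 3 it was 3.81 and 4.37. The 3 libraries of HF week 5, at 2.88, 3.46 and 2.90, lay below the lowest library of the controls, 3.94. In recovery it was at 4.95 and 4.64 at week 7, at 5.17 and 3.70 at week 9, at 4.53, 3.70 and 3.83 at week 11 and at 3.54 and 3.68 at week 13, so that 5 of these libraries also lay below the lowest control library. Without Mmp3 and Mmp9 the means were 5.23 in control, 5.67 in HF week 3 and 4.06 in HF week 5, with HF week 3 above control rather than below it. The libraries of HF week 5 were then at 4.89, 4.11 and 3.18 and overlapped the controls, at 4.36 to 7.48. The ratio is of mRNA levels and was given no test.

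Other genes of the same system were taken as 7 lists with 71 genes, of which 46 were tested. In HF week 5 against control 15 were higher, 3 were lower and 28 were not called, against 24.0% of all genes tested that were called in either direction. The 15 include Adamts8, which passed the filter on low values only through the HF groups and whose call is given no weight, so this count is not set against that share as a result. Of the 17 other metalloproteinases 6 were tested and 1 was called: Mmp23, a membrane-anchored member, was at 5.43 ± 0.645 FPKM (SD, n = 5) in control and 14.3 ± 5.37 FPKM (SD, n = 3) in HF week 5 (log2 fold change 1.26, adjusted p = 0.000472). The median log2 fold change of the 6 was -0.11. The other 11, among them the collagenases Mmp8 and Mmp13, had means of at most 0.195 FPKM.

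Of 17 other ADAMTS genes 7 were tested, 4 of them were higher and 0 lower. Among these 4, Adamts8 passed the filter on low values only through the HF groups, so its call is given no weight: its mean was 0.192 FPKM over the 19 libraries outside HF, and it was at 0.188 ± 0.0576 FPKM (SD, n = 5) in control and 1.38 ± 1.43 FPKM (SD, n = 3) in HF week 5. Adamts10 rose by 1.06 and Adamts13, the protease of von Willebrand factor, by 0.68. Of 6 ADAM sheddases, which release membrane proteins, 3 were higher and 1 lower, with Adam19 and Adam15 rising by 0.64 and 0.54 while Adam9 fell by 0.43. In the list of the plasminogen system Serpine2, an inhibitor of thrombin, rose by 0.76 (adjusted p = 0.0113). Of 6 genes in the cathepsin list, 5 cathepsins and their inhibitor Cst3, 1 was called, Ctsl, which rose by 0.35.

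Of 6 regulators of metalloproteinases tested, Furin, the convertase that activates Mmp14, fell by 0.65 (adjusted p = 0.0125) and Reck, a membrane-anchored inhibitor of metalloproteinases, rose by 0.51 (adjusted p = 0.0464). Of 10 matrix substrates 4 were higher and 0 lower: Fn1, fibronectin, rose by 1.17 (adjusted p = 0.000364), Dcn, decorin, by 0.95 and Col1a2, a chain of type I collagen, by 0.68. In HF week 3 the substrates were called in 8 of 10 cases, against 50.7% of the genes tested, with a median log2 fold change of 2.01. In Recovery week 19 against control 0 of the 46 genes were called.

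The genes whose levels were most like those of the called inhibitors and proteases were ranked by Pearson's r on log2(FPKM + 0.5) over the 24 libraries and 12,758 other genes. For Timp1 the highest were Col16a1 (r = 0.95), Clec11a and Rpn2. For Mmp3 they were Gpx3 (r = 0.94), Fam114a1 and Dstn, and for Adamts2 Col14a1 (r = 0.94), Panx1 and Ccdc80. For Timp2 they were Trf (r = 0.93), Dap and Ccdc80, for Timp3 Diap1 (r = 0.95), Wasf2 and 8030462N17Rik, and for Timp4 Tinagl1 (r = 0.73), Lfng and Pgam1. Timp4 thus had no gene as close to it as the others had. The libraries share their groups and their processing, and these values are descriptions.

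Marker lists of several cell types also differed between the groups, and in whole tissue fewer cells of a type and less RNA per cell cannot be told apart. The summed FPKM of 6 fibroblast markers was 203 to 305 in Control week 19, 383 and 479 in HF week 3, 295 to 579 in HF week 5 and 263 to 402 in Recovery week 19. For 5 macrophage markers found of 6 it was 175 to 277 in control, 310 and 336 in HF week 3, 205 to 393 in HF week 5 and 372 and 457 in Recovery week 13. For 5 endothelial markers it was 171 to 193 in control, 240 and 319 in HF week 3 and 199 to 264 in HF week 5, and for 4 smooth muscle markers it was 69.8 to 99.2 in control, 147 and 185 in HF week 3 and 135 to 227 in HF week 5, both without overlap between HF and control. For 7 neutrophil markers it was 4.89 to 38.2 in control, 33.1 and 42.6 in HF week 3 and 9.90 to 68.2 in HF week 5, both HF groups overlapping the controls. For 4 markers of valve tissue it was 0.480 to 1.63 in control, 27.5 and 56.7 in HF week 3 and 11.8 to 39.0 in HF week 5, without overlap between HF and control, and Tnmd among them is listed at 0 in each control library. Of 6 ventricular cardiomyocyte markers Myh6 alone was listed at 0 in each control library. The part of these cell types in the differences of the members was not tested.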

How the data were processed

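RNA of mouse ventricles was sequenced after poly(A) enrichment. Per the labels and the study's methods, the authors aligned paired-end reads with TopHat2 to mm9 and computed the deposited FPKM with Cuffdiff, 1 column per library. Annotation, strand and scaling between libraries are not given in the sources used here, and neither is the cohort of each library. Columns were matched to groups by week. Among columns with values of single samples, 5 named for week 5 controls were left out, since 4 such samples are labelled. Recovery week 9 has 2 columns and 3 labelled samples.

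Log2(FPKM + 0.5) was fitted in 24 libraries with limma 3.58.1 in R 4.3.3 (12,759 genes averaging 0.5 FPKM or more, a mean for each of 8 groups, eBayes with a trend, 16 residual degrees of freedom). Tests were two-sided, p-values were adjusted by Benjamini-Hochberg over all genes tested, and a gene was called at an adjusted p below 0.05. Fold changes on this scale understate those of low genes, and p-values measure the spread between libraries. Other values were computed with Python 3.11.15, numpy 2.4.6 and pandas 2.3.3 and drawn with matplotlib 3.10.9. The fit was tested on simulated data.

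The 10 members and the gene lists were chosen with earlier results of these data known. The text names each member and, of each list, up to 3 called genes with the largest difference in HF week 5 against control, and the 3 genes most like each member called there. The results of 1 listed gene are left out here. Alternatives were pseudocounts of 0.1 and 1, no filter, a filter at 1 FPKM, fits of the groups compared only, median centring, quantile normalization, robust eBayes, an unadjusted threshold and each library left out. Leaving out both HF week 3 libraries, the 3 libraries with the most Myl7, or library 5 of Control week 19 and of Recovery week 19 was chosen after seeing the data.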

Additional observations from a re-analysis of the deposited data

Results flagged for a closer look

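Of 20 groups of values with 4 to 10 libraries that were examined for a single distant library, 2 held one, and chance alone marks about 1 in 20. Mmp3 in Control week 19 was at 5.34 FPKM in library 5, and the next library was at 2.56 FPKM. Timp1 in Recovery week 19 was at 22.8 FPKM in library 5, and the next library was at 5.38 FPKM. Leaving out library 5 of these 2 groups left 3 numbers of members called as they were: 6 for HF week 5 and 0 for Recovery week 19 when set against control, and 3 between Recovery week 19 and HF week 5. Recovery weeks 7 to 13 against HF week 3 gave 7 in place of 6. HF week 3 against control stayed at 7, although Mmp9 lost its call (adjusted p = 0.0504).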

How the results depend on the processing

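No paired analysis applied, since mice were sacrificed at their time point and the groups hold different mice. The columns carry no replicate number that the labels share. Of 42 differences of single members at an unadjusted p below 0.05, 31 were called, and of 785 values under alternatives 710 kept their direction and side of the threshold, 64 lost the call, 11 gained it and 0 reversed. Without a filter on low values the members called in HF week 5 against Control week 19 were 3 in place of 6, and in Recovery weeks 7 to 13 against HF week 5 they were 2 in place of 4, with more genes entering the adjustment. Without the 3 libraries with the most Myl7 these counts were 1 and 2. With only the groups compared in the fit, HF week 5 against HF week 3 gave 0 in place of 5 and Recovery weeks 7 to 13 against Control week 19 gave 1 in place of 0, with fewer libraries behind the spread. At the unadjusted threshold Recovery week 19 against Control week 19 and Recovery weeks 7 to 13 against Control week 19 gave 3 each in place of 0. When libraries were left out 1 at a time the counts ranged from 1 to 6 in HF week 5 against Control week 19, from 1 to 6 in HF week 5 against HF week 3, from 1 to 4 in Recovery weeks 7 to 13 against HF week 5, from 2 to 4 in Recovery week 19 against HF week 5, from 6 to 7 in HF week 3 against Control week 19 and from 5 to 7 in Recovery weeks 7 to 13 against HF week 3. Where an arm was left with a lone library, it was assumed to vary like the other groups. Without Mmp3 and Mmp9 the ratio of Timp to Mmp was 5.67 in HF week 3, 4.06 in HF week 5 and 4.81 in Recovery week 19, in place of 4.09, 3.08 and 4.33. Depth in reads is not known, and the counting error of low genes such as Mmp9 cannot be given.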
